A study of Mus musculus with 42 samples.

Results

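The 9 genes described here build an epithelium and move fluid across it: the keratin genes Krt8, Krt18 and Krt19, the junction genes Cdh1, Cldn4 and Dsp, the sodium pump subunit gene Atp1b1, the water channel gene Aqp3 and the tetraspanin gene Tspan8. They are taken by name from a list of genes of blastocyst epithelium and fluid transport. This list was chosen with earlier results of these data known, so counts of the 9 genes beside the share of all genes only describe. All 9 were listed in both tables used, of 24083 genes in the stage table and 23986 in the morula table. Expression was measured by Smart-seq2, a full-length cDNA method for small samples, in mouse embryos with C57BL/6N mothers and PWK/PhJ fathers, and the authors listed the maternal and the paternal allele separately as FPKM, a level scaled for gene length and sequencing depth. The stage table covered wild-type females: 3 samples of 8-cell embryos, 3 of morulae, 2 of inner cell mass and 3 of trophectoderm from E3.5 blastocysts, 1 of epiblast, 3 of visceral endoderm and 2 of extraembryonic ectoderm at E6.5, and 1 of yolk sac at E9.5. The morula table covered Xp XRRa KO female morulae, in which the XRRa region of the paternal X is deleted (4 samples), wild-type control female morulae (3) and wild-type control male morulae (4).

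In both tables the samples of a group were merged into 1 column per allele. No spread between samples can be computed from such columns, so no difference was tested and no p-value is given. Levels below are the sum of both alleles unless an allele is named. A difference is called at least 2-fold when 1 of the columns held 5 FPKM or more, both were above 0, and the ratio reached 2 on FPKM plus 1; log2 ratios are on that scale, which understates differences of low genes. Each count of the 9 genes stands beside the share of all comparable genes that passed the same rule. A gene may meet the minimum only through the column where it is high, and its call is then no separate support. A 0 may stand for a silent gene or for one without reads that distinguish the strains: Cd63 was listed at 0 in 7 of the 8 stage columns and at 292 FPKM in the extraembryonic ectoderm. The sources used here do not say whether reads without a strain difference enter the FPKM, so levels and ratios between genes may also depend on how many such differences a gene has, and are given as listed. In whole tissues, fewer cells of a type and less RNA per cell cannot be told apart.

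The trophectoderm is the first epithelium of the mouse embryo. Its cells join through E-cadherin, tight junctions and desmosomes, carry a network of keratin 8 and keratin 18 filaments, and pump sodium inward through the basolateral Na,K-ATPase, with water following through aquaporins to fill the blastocoel. The visceral endoderm and the extraembryonic ectoderm are the epithelial layers that surround and cap the epiblast after implantation.

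Keratins 8 and 18 pair as a type II and a type I chain, and their genes are neighbours on opposite strands of chromosome 15 in the RefSeq order. Start-site windows from RefSeq (GRCm38.p6, 250 bases before to 50 after the annotated start, read on the strand of the gene) were available for 7 of the 9 genes, all but Krt19 and Cdh1. The windows of Krt8 (chr15:102004293-102004592, minus strand) and Krt18 (chr15:102027966-102028265, plus strand) are shown because these neighbours varied together over the stage columns, and that of Aqp3 (chr4:41098134-41098433, minus strand) because its course differed from theirs. Capitals mark matches to the motifs searched on both strands, which are listed after the sequences.
Krt8: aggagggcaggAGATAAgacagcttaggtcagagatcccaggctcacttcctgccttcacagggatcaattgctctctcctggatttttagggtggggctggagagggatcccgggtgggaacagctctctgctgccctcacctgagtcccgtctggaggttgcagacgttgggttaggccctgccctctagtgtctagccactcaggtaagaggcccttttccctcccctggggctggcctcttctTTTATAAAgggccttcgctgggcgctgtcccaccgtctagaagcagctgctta
Krt18: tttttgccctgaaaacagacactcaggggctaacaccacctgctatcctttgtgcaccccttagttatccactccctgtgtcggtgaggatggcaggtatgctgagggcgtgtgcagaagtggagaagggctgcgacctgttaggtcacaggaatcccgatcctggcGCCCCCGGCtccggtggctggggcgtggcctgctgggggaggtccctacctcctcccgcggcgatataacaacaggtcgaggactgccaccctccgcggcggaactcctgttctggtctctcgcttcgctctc
Aqp3: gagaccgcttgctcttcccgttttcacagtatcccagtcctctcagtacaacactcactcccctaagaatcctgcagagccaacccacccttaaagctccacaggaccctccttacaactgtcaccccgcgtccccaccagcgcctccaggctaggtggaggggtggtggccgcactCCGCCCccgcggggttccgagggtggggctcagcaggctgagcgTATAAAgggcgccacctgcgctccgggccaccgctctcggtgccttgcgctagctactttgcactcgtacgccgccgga
The motifs were the TEAD core GGAATG (in 14.7% of all 32851 windows of that length in the table), the AP-2 site GCCNNNGGC (16.6%), the GC box GGGCGG (35.7%), the GATA core AGATAA (11.2%), the ETS core CCGGAAG (8.86%) and the TATA box TATAAA (13.6%). The Krt8 window held a GATA core and 2 overlapping TATA matches, 1 on each strand. These matches began at -3 and -1, directly at the annotated start. The Krt18 window held an AP-2 site, and the Aqp3 window a GC box and a TATA box that began at -29. Of the 7 windows, 4 held a GC box (Cldn4, Dsp, Atp1b1 and Aqp3), 2 an AP-2 site (Krt18 and Dsp, where it overlapped a GC box), 2 a TATA box, 1 a GATA core, and none a TEAD or an ETS core. Tspan8 had no match to these letters. These matches describe the windows only.

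Markers of each labelled tissue were checked first. All 6 trophectoderm markers stood at 1 FPKM or more in the trophectoderm (summed level 1628 FPKM) and also in the inner cell mass (248 FPKM), while the 5 inner cell mass markers summed to 40.4 FPKM in the trophectoderm, with Fgf4 at 0, and to 496 FPKM in the inner cell mass. The epiblast, visceral endoderm and extraembryonic ectoderm columns held all of their own markers at 1 FPKM or more (5 of 5, 5 of 5 and 6 of 6). Of the 5 epiblast markers, 3 also stood at 1 FPKM or more in the visceral endoderm (sum 261 FPKM, against 868 in the epiblast). These were Fgf5 (91.9 FPKM, against 60.8 in the epiblast), Otx2 (87.5 against 106) and Dnmt3b (80.9 against 517). The other ones were nearly absent there, Pou5f1 at 0.334 FPKM against 79.4 and Tdgf1 at 0.156 against 104. The extraembryonic ectoderm held 5 of 5 (sum 251 FPKM). The part of these markers in the values of the 9 genes was not tested. The yolk sac column held all 5 visceral endoderm markers but listed 4506 genes above 0, against 10744 to 15106 in the other 7. A 0 there therefore carries little. Of the globin genes, Hbb-bh1 stood at 313 FPKM in the yolk sac, while Hba-x and Hbb-y were at 0. Hba-x was at 0 in every column and Hbb-y reached at most 0.00777 FPKM, so their zeros may stand for missing strain differences.

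Krt8 and Krt18 had the largest levels of the 9 genes in the blastocyst columns. Krt8 stood at 2.26 FPKM at the 8-cell stage, 29.2 in morulae, 520 in inner cell mass and 1502 in trophectoderm, then 12.9 in the epiblast, 287 in the visceral endoderm and 149 in the extraembryonic ectoderm, and it was listed at 0 in the yolk sac. Krt18 followed with 11.9 FPKM at the 8-cell stage, 59.8 in morulae, 572 in the inner cell mass, 1716 in the trophectoderm, 69.0 in the epiblast, 316 in the visceral endoderm, 279 in the extraembryonic ectoderm and 72.0 in the yolk sac. Both were therefore highest in the trophectoderm, where they ranked 16th (Krt8) and 13th (Krt18) among 11776 genes above 0, and the trophectoderm column was 2.89 and 2.998 times the second highest, the inner cell mass. The FPKM of Krt18 over that of Krt8 was 5.27 at the 8-cell stage, 2.05 in morulae, 1.10 in inner cell mass and 1.14 in trophectoderm. Among the E6.5 tissues it was 5.36 in the epiblast, 1.10 in the visceral endoderm and 1.86 in the extraembryonic ectoderm. Among the 7 columns with both above 0, the ratio of listed FPKM was highest in the epiblast and 8-cell columns; in the yolk sac Krt18 was listed at 72.0 FPKM and Krt8 at 0. Krt8 has an annotated pseudogene, and how reads shared with it were counted is not given in the sources used here.

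Krt19, a type I keratin gene of simple epithelia, had another course. It was at 0.551 FPKM at the 8-cell stage, 1.91 in morulae, 1.48 in the inner cell mass and 2.09 in trophectoderm, under the 5 FPKM minimum in each. At E6.5 it stood at 68.9 FPKM in the visceral endoderm and 59.0 in the extraembryonic ectoderm, against 0.262 in the epiblast. The visceral endoderm and the extraembryonic ectoderm were within 1.17 times of each other, so their order is not firm without replicates. The blastocyst columns thus held Krt8 and Krt18 at 520 FPKM or more with almost no Krt19.

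Cdh1, which encodes E-cadherin, the adhesion receptor of compaction and of adherens junctions, had the flattest profile of the 9. It was at 5.88 FPKM at the 8-cell stage, 43.3 in morulae, 76.3 in inner cell mass and 87.8 in trophectoderm, and at 29.5, 30.9 and 70.5 FPKM in the E6.5 epiblast, visceral endoderm and extraembryonic ectoderm. Its highest column held 25.5% of the sum over the 8 columns, against 93.2% for Tspan8 at the other end. Trophectoderm and inner cell mass differed by 1.15-fold.

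Cldn4, a claudin gene of tight junctions, was already at 72.6 FPKM in 8-cell embryos, the highest of the 9 genes at that stage. It stood at 203 FPKM in morulae, 146 in inner cell mass and 524 in trophectoderm. Among the later tissues it was at 4.73 FPKM in the epiblast, 0.111 in the visceral endoderm and 56.3 in the extraembryonic ectoderm. The visceral endoderm, with Krt8 and Krt18 near 300 FPKM, thus held next to no Cldn4.

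Dsp encodes desmoplakin, which ties keratin filaments to desmosomes. It stood at 0.326 FPKM at the 8-cell stage, 0.721 in morulae, 1.48 in inner cell mass and 8.94 in trophectoderm, where Krt19 alone was lower among the 9. At E6.5 it was at 7.18 FPKM in the visceral endoderm and 4.33 in the extraembryonic ectoderm, against 0.120 in the epiblast, and the yolk sac had 3.08 FPKM.

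Atp1b1 encodes the beta 1 subunit that carries the sodium pump to the membrane. In the stage columns its level was 3.07 FPKM at the 8-cell stage, 4.21 in morulae, 33.8 in inner cell mass and 117 in trophectoderm. Within these columns the larger step lay after the morula. The separately normalized morula table listed 16.9 FPKM in control female and 29.2 in control male morulae, so the time of the step is not firm. At E6.5 Atp1b1 stood at 5.02 FPKM in the epiblast, 31.9 in the visceral endoderm and 11.2 in the extraembryonic ectoderm. FPKM is scaled by length but may depend on the strain differences in a gene. The listed FPKM of Atp1b1 over that of Atp1b3, the gene of another beta subunit, was 0.0371 at the 8-cell stage, 0.0527 in morulae, 0.562 in inner cell mass and 2.09 in trophectoderm. Among the 7 stage columns where both were above 0, the trophectoderm was the 1 column with this ratio above 1; the ratio was 0.0467 in the epiblast, 0.501 in the visceral endoderm and 0.0920 in the extraembryonic ectoderm.

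Aqp3, a channel for water and glycerol, had its highest column in the morula. It was at 42.5 FPKM at the 8-cell stage, 231 in morulae, 96.6 in inner cell mass and 177 in trophectoderm. In the visceral endoderm and extraembryonic ectoderm it was at 2.00 and 0.940 FPKM, in the epiblast it was listed at 0, and in the yolk sac it stood at 106 FPKM. The morula exceeded the trophectoderm by 1.30-fold, which is under the 2-fold rule.

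Tspan8, which encodes a membrane tetraspanin of epithelial cells, had the largest part of its signal in 1 column. It stood at 3.06 FPKM at the 8-cell stage, 2.49 in morulae, 84.4 in inner cell mass and 1256 in trophectoderm, and was under 1 FPKM in all 3 E6.5 tissues and listed at 0 in the yolk sac. The trophectoderm column ranked it 29th of 11776 genes and held 93.2% of its sum over the 8 columns. Its trophectoderm level was 14.9 times that of the inner cell mass, against 2.58 to 3.47 times the second highest column for Krt8, Krt18, Cldn4 and Atp1b1.

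**Figure D1:**
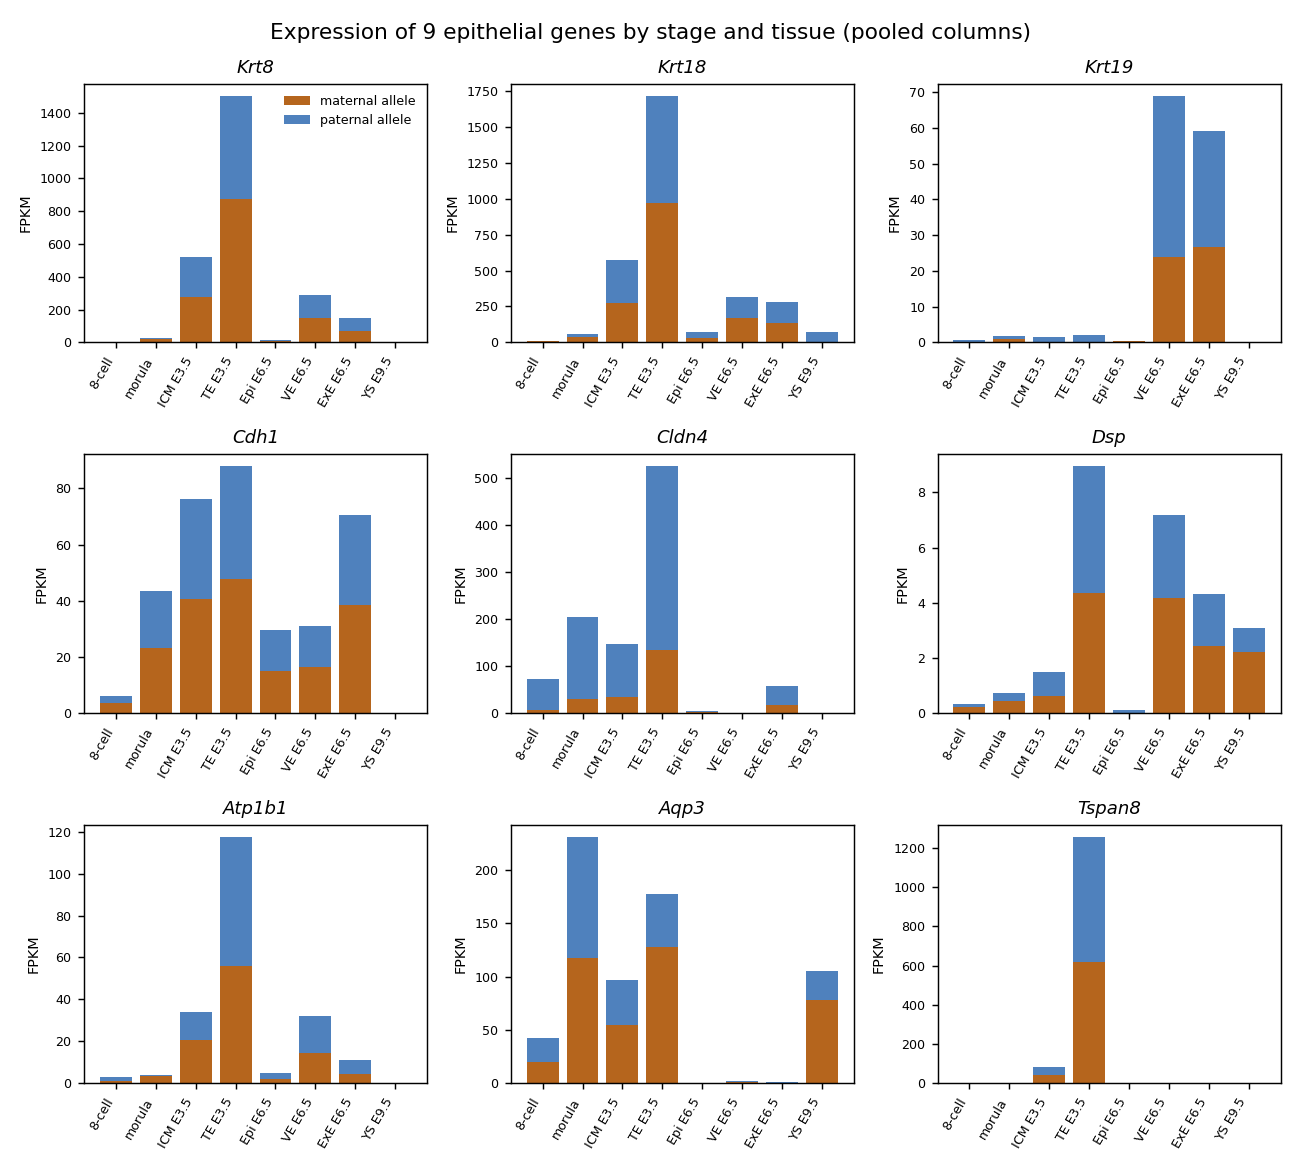
Each panel plots 1 gene, with FPKM on the vertical axis and the 8 stage-table columns from 8-cell embryo to yolk sac on the horizontal axis, the maternal and paternal allele stacked in each bar, with no error bars because samples were merged. Krt8, Krt18, Cdh1, Cldn4, Dsp, Atp1b1 and Tspan8 are tallest in the trophectoderm, Aqp3 in the morula (231 FPKM) and Krt19 in the visceral endoderm (68.9 FPKM) and extraembryonic ectoderm (59.0 FPKM).

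Between morula and 8-cell embryo, all 5 members that met the minimum were at least 2-fold higher in the morula, where 31.3% of 5484 comparable genes were higher and 6.13% lower. The log2 ratios were 3.21 for Krt8, 2.69 for Cdh1, 2.41 for Aqp3, 2.24 for Krt18 and 1.47 for Cldn4, with a member median of 2.41 against 0.49 over all genes. Krt8 ranked 24th from the top and Cdh1 101st. Because of that offset of 0.49, 83.6% of all genes past 2-fold were higher in the morula as deposited and 51.8% after centring on the median; after centring, 4 of the 5 members were higher and Cldn4 stood at 0.98. The other 4 members were under 5 FPKM in both columns.

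The blastocyst tissues were set against the morula next. In the trophectoderm, 7 of 8 members were at least 2-fold higher than in the morula (21.7% of 6240 genes higher, 16.9% lower), and the member median was 3.52 against 0.02. Tspan8 led with a log2 ratio of 8.49, the fourth highest of all comparable genes, followed by Krt8 (5.64), Krt18 (4.82), Atp1b1 (4.51), Dsp (2.53), Cldn4 (1.36) and Cdh1 (1.004), while Aqp3 was at -0.38. Cdh1 sat on the 2-fold line, at 0.98 after centring. In the inner cell mass, 4 of 7 members were at least 2-fold higher than in the morula and 1 was lower (18.0% of 6143 genes higher, 10.1% lower). The higher ones were Tspan8 (4.61), Krt8 (4.11), Krt18 (3.24) and Atp1b1 (2.74), the lower one was Aqp3 (-1.25), and Cdh1 (0.80) and Cldn4 (-0.47) were within 2-fold. Both tissue comparisons use the same morula column. Tspan8 and Atp1b1 were under the minimum in that column and entered both comparisons only through the blastocyst tissue. Dsp did so in the trophectoderm comparison.

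Between the blastocyst tissues, 6 of 8 members were at least 2-fold higher in the trophectoderm than in the inner cell mass, and none was lower (11.6% of 6345 genes higher, 12.6% lower; member median 1.67 against -0.10). The 6 were Tspan8 (3.88), Dsp (2.00), Cldn4 (1.84), Atp1b1 (1.77), Krt18 (1.58) and Krt8 (1.53). Aqp3 (0.87) and Cdh1 (0.20) were within 2-fold. Dsp met the minimum only in the trophectoderm (8.94 FPKM, against 1.48 in the inner cell mass). The inner cell mass held 34.6% of the trophectoderm level of Krt8, 33.4% of Krt18, 28.8% of Atp1b1, 27.8% of Cldn4 and 6.72% of Tspan8. The trophectoderm markers stood at 8.22% (Eomes), 10.6% (Gata2), 11.7% (Id2), 24.6% (Gata3), 34.6% (Cdx2) and 83.9% (Tead4) of their trophectoderm level in the inner cell mass column, and their part in the keratin levels there was not tested.

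**Figure D2:**
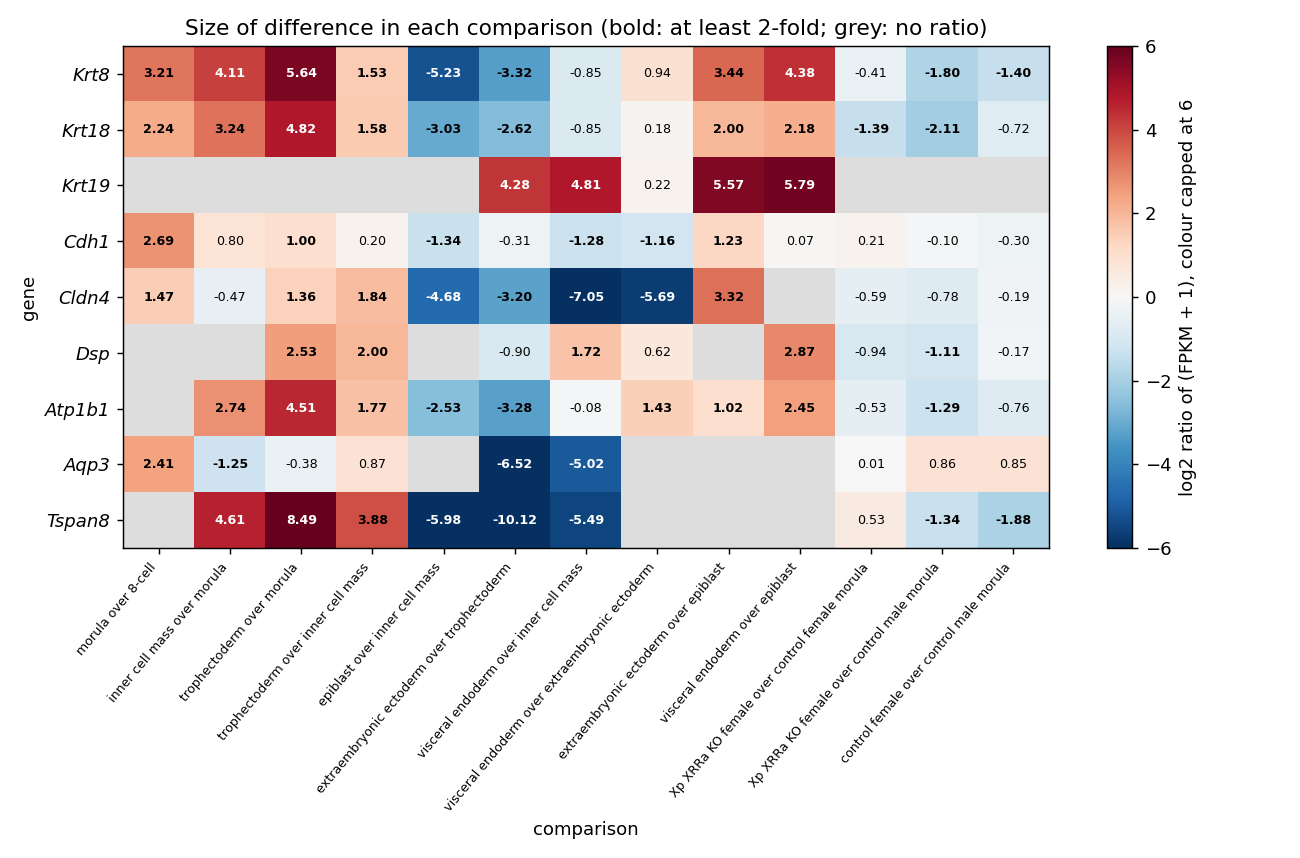
The map shows the log2 ratio of FPKM plus 1 for each gene (rows) in each comparison (columns), red for higher and blue for lower in the group named first, with the colour capped at 6, bold print for at least 2-fold and grey where no ratio was taken. Trophectoderm over morula holds 7 bold positive ratios, epiblast over inner cell mass 6 bold negative ones, and Krt19 has ratios only in comparisons with visceral endoderm or extraembryonic ectoderm.

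After implantation the members parted by tissue. In the epiblast all 6 comparable members were at least 2-fold lower than in the inner cell mass (13.6% of 6261 genes higher, 26.4% lower; member median -3.86 against -0.23). The log2 ratios were -5.98 for Tspan8, -5.23 for Krt8, -4.68 for Cldn4, -3.03 for Krt18, -2.53 for Atp1b1 and -1.34 for Cdh1. Of all genes past 2-fold, 33.9% were higher in the epiblast as deposited and 44.8% after centring, and all 6 members stayed lower after centring. The epiblast column is 1 sample.

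The extraembryonic ectoderm derives from the polar trophectoderm. Set against the E3.5 trophectoderm, 1 of 9 members was at least 2-fold higher and 6 were lower (19.4% of 6570 genes higher, 17.0% lower; member median -3.20 against 0.18). Krt19 was the higher one (4.28, ranked 28th of all genes). Tspan8 (-10.12, the third lowest of all), Aqp3 (-6.52), Krt8 (-3.32), Atp1b1 (-3.28), Cldn4 (-3.20) and Krt18 (-2.62) were lower, and Dsp (-0.90) and Cdh1 (-0.31) were within 2-fold. Dsp passed 2-fold after centring, at -1.08.

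In the visceral endoderm set against the inner cell mass, 2 of 9 members were at least 2-fold higher and 4 lower (15.1% of 6643 genes higher, 30.8% lower; member median -0.85 against -0.48). Krt19 (4.81) and Dsp (1.72) were higher, and Cldn4 (-7.05), Tspan8 (-5.49), Aqp3 (-5.02) and Cdh1 (-1.28) lower. Krt8 and Krt18 (both -0.85) and Atp1b1 (-0.08) were within 2-fold. Of all genes past 2-fold, 32.9% were higher in the visceral endoderm as deposited and 55.0% after centring, which left 2 members higher and 3 lower, with Cdh1 at -0.80.

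Both extraembryonic tissues exceeded the epiblast in most members. All 6 comparable members were at least 2-fold higher in the extraembryonic ectoderm than in the epiblast (16.2% of 6200 genes higher, 6.53% lower; member median 2.66 against 0.25): Krt19 (5.57), Krt8 (3.44), Cldn4 (3.32), Krt18 (2.00), Cdh1 (1.23) and Atp1b1 (1.02). After centring, which put 55.3% instead of 71.2% of the genes past 2-fold on the higher side, Cdh1 (0.98) and Atp1b1 (0.77) were within 2-fold and 4 members were higher. In the visceral endoderm, 5 of 6 members were at least 2-fold higher than in the epiblast (15.9% of 6142 genes higher, 19.0% lower; member median 2.66 against -0.22), namely Krt19 (5.79), Krt8 (4.38), Dsp (2.87), Atp1b1 (2.45) and Krt18 (2.18). Cdh1 was at 0.07, and centring moved the higher side of all genes past 2-fold to 60.5% instead of 45.6%, with the same 5 members higher. Both comparisons use the same epiblast column.

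The visceral endoderm was also set against the extraembryonic ectoderm. Of 7 members, 1 was at least 2-fold higher in the visceral endoderm and 2 were lower (10% of 6570 genes higher, 24.5% lower; member median 0.22 against -0.46). Atp1b1 (1.43) was higher, and Cldn4 (-5.69, rank 10 from the lowest of all comparable genes) and Cdh1 (-1.16) lower, while Krt8 (0.94), Dsp (0.62), Krt19 (0.22) and Krt18 (0.18) were within 2-fold. After centring, 62.2% instead of 29.0% of all genes past 2-fold were higher in the visceral endoderm, 3 members were higher (Krt8 at 1.40, Dsp at 1.08, Atp1b1) and 1 was lower, with Cdh1 at -0.70. The share of members that were lower, 2 of 7, was near that of all genes. The 5 visceral endoderm markers stood at 6.37% to 10.5% of their visceral endoderm level in the extraembryonic ectoderm column. By the same measure Krt18 stood at 88.1%, Krt19 at 85.6%, Dsp at 60.3%, Krt8 at 52.1% and Atp1b1 at 35.2%. Cdh1 and Cldn4 were higher in the extraembryonic ectoderm, and Aqp3 (46.9%) and Tspan8 (14.2%) were under 5 FPKM in both tissues. The part of visceral endoderm in the levels of the extraembryonic ectoderm column was not tested.

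The morula table holds female morulae with a deletion of XRRa on the paternal X, beside control female and control male morulae. Krt18 stood at 140.0 FPKM in Xp XRRa KO female morulae, against 367 in control female and 606 in control male morulae. Krt8 stood at 137 FPKM in the KO column, against 182 in control females and 479 in control males. Both keratin genes were lowest in the KO column and highest in the male column, and the FPKM of Krt18 over that of Krt8 was 1.02 in KO, 2.02 in control female and 1.27 in control male morulae. Krt19 was at 2.30, 3.69 and 2.43 FPKM in these groups, with the maternal allele at 0 in all 3.

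Cldn4 had 284 FPKM in KO morulae, against 428 in control females and 487 in control males. Dsp had 3.03 FPKM in KO morulae, against 6.74 in control females and 7.70 in control males, and Atp1b1 had 11.4, against 16.9 and 29.2. These 3 genes had the same order as the keratins. The remaining ones did not: Cdh1 stood at 33.3 FPKM in KO morulae, against 28.8 in control females and 35.7 in control males. Aqp3 had 124 FPKM in KO morulae, against 123 in control females and 67.8 in control males, and Tspan8 had 11.4 FPKM, against 7.57 and 30.5.

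By the size rule, 1 of 8 members was at least 2-fold lower in KO than in control female morulae and none was higher (4.04% of 5569 genes higher, 3.41% lower; member median -0.47 against 0.05). This was Krt18 at -1.39, the 51st lowest gene, and it was past 2-fold on each allele, at -1.01 on the maternal and -1.82 on the paternal one. Dsp was at -0.94, Cldn4 at -0.59, Atp1b1 at -0.53, Krt8 at -0.41, Aqp3 at 0.01, Cdh1 at 0.21 and Tspan8 at 0.53, all within 2-fold. Against control males, 5 of 8 members were at least 2-fold lower in KO morulae and none was higher (5.27% of 5726 genes higher, 5.54% lower; member median -1.20 against -0.06). They were Krt18 (-2.11, rank 9 from the lowest), Krt8 (-1.80), Tspan8 (-1.34), Atp1b1 (-1.29) and Dsp (-1.11). Control males differ from KO females in sex as well as in the deletion, so these cannot be told apart here.

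The controls also differed from each other. In control female against control male morulae, 2 of 8 members were at least 2-fold lower and none was higher (2.58% of 5541 genes higher, 2.80% lower; member median -0.51 against -0.09), namely Tspan8 (-1.88, sixth lowest of all) and Krt8 (-1.40). Atp1b1 was at -0.76, Krt18 at -0.72 and Aqp3 at 0.85. Of all genes past 2-fold, 48.0% were higher in control females as deposited and 61.8% after centring, with the same 2 members lower. Each of the 3 columns enters 2 of these 3 comparisons, so they are not independent. For Krt8, Cdh1, Atp1b1, Aqp3 and Tspan8 the control columns lay further apart than the KO and control female columns did, and for Krt18, Cldn4 and Dsp they lay closer. The trophectoderm markers summed to 161 FPKM in KO morulae, against 165 in control females and 196 in control males. Cdx2 stood at 5.05 FPKM in KO, against 8.19 and 14.1, and Eomes and Id2 were also lowest in KO. Gata2 was listed at 0 in KO, against 0.0879 and 1.06. Tead4 was highest in KO (35.4 FPKM, against 24.2 and 19.8). Gata3, at 68.9 FPKM in KO, lay between control females (51.6) and control males (91.1). The part of these markers in the differences was not tested. The inner cell mass markers summed to 267 FPKM in KO, against 217 in control females and 191 in control males.

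The stage table also has wild-type female morulae, normalized separately. In these, Krt8 stood at 29.2 FPKM, Krt18 at 59.8, Krt19 at 1.91, Cldn4 at 203, Dsp at 0.721, Atp1b1 at 4.21 and Tspan8 at 2.49. Each was under every value of that gene in the morula table. Aqp3 (231 FPKM) and Cdh1 (43.3 FPKM) were above every value of theirs in the morula table. No ratio was taken between the tables.

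**Figure D3:**
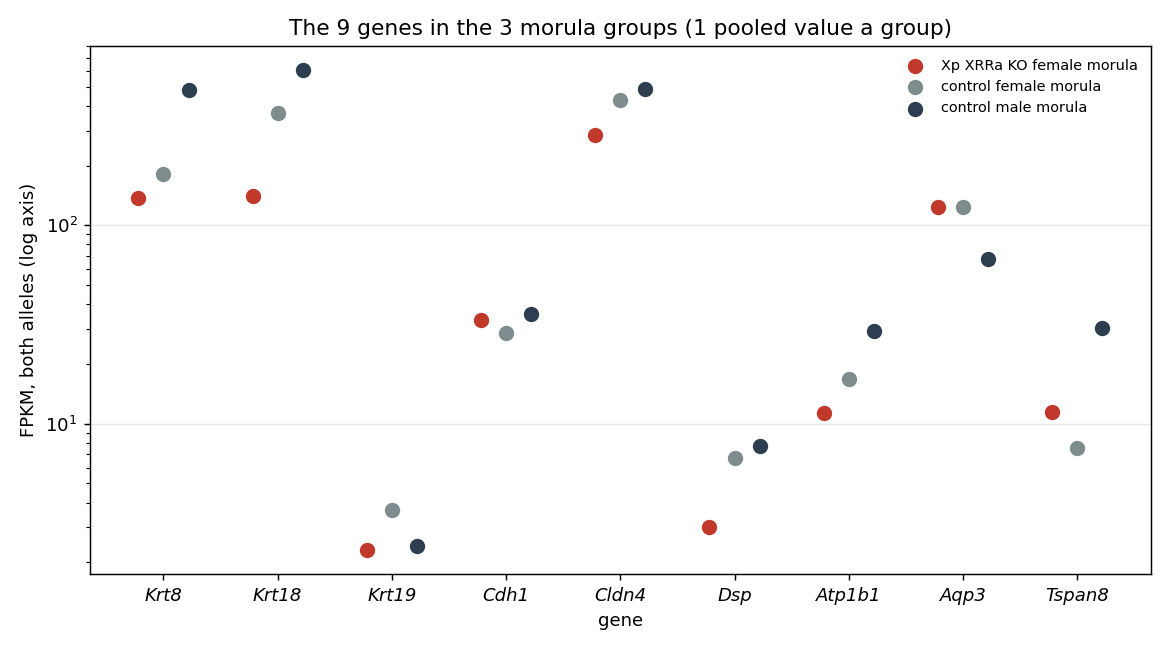
Points show FPKM of both alleles together on a log axis for each of the 9 genes (horizontal axis) in Xp XRRa KO female, control female and control male morulae, 1 merged value a group and so no error bars. Krt18 lies at 140.0 in KO, 367 in control female and 606 in control male morulae, while the 3 points of Cdh1 lie within 28.8 to 35.7.

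The alleles of each member were followed in the columns of both tables where it had at least 5 FPKM. Maternal alleles are C57BL/6N and paternal alleles PWK/PhJ throughout, so an effect of strain and one of parent of origin cannot be told apart. The autosomal median of the paternal share lay between 47.4% and 50%. Cldn4 stood apart: its paternal share was 69.3% to 92.9% over 8 columns, with a median of 79.6%, highest in 8-cell embryos (5.15 FPKM maternal, 67.5 paternal) and lowest in extraembryonic ectoderm (17.3 and 39.0). Of 3026 autosomal genes measured in the same 8 columns, 25 (0.826%) had 65% or more in all of them.

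The other members were nearer to even in most columns. Cdh1 lay between 40.8% and 49.2% in 10 columns, Krt8 between 37.9% and 51.8% in 9, Dsp between 41.8% and 57.5% in 4, and Tspan8 between 48.9% and 65.01% in 5. Krt18 ranged from 18.5% in 8-cell embryos (9.71 FPKM maternal, 2.199 paternal) to 100% in the single yolk sac sample, with a median of 51.4% over 11 columns. Krt19 had 65.4% in visceral endoderm and 54.8% in extraembryonic ectoderm.

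Aqp3 and Atp1b1 had columns away from their usual share. Aqp3 was at 27.9% in the trophectoderm (128 FPKM maternal, 49.6 paternal) and 25.9% in the yolk sac, against 43.0% to 52.7% in the other 6 columns. Its maternal allele was thus about as high in the trophectoderm as in the morula (117 FPKM). The paternal one was lower (114 FPKM in the morula, log2 ratio -1.18). A maternal share of 65% or more was held by 10.3% of autosomal genes in the trophectoderm and by 34.4% in the yolk sac. The yolk sac column is 1 sample, so the low share of Aqp3 there is common among its genes. Atp1b1 was at 27.6% in KO morulae (8.22 FPKM maternal, 3.13 paternal), against 60.2% in control females (6.73 and 10.2) and 49.7% in control males (14.7 and 14.5). A low share was not limited to KO morulae. Atp1b1 was at 38.1% in the inner cell mass. In wild-type female morulae of the stage table it was at 15.7% (3.55 and 0.662), with a total of 4.21 FPKM, under the minimum. Its log2 ratio of KO over control female morulae was 0.26 on the maternal and -1.43 on the paternal allele. At these levels, and with depth unknown, the error of such a share could not be given.

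**Figure D4:**
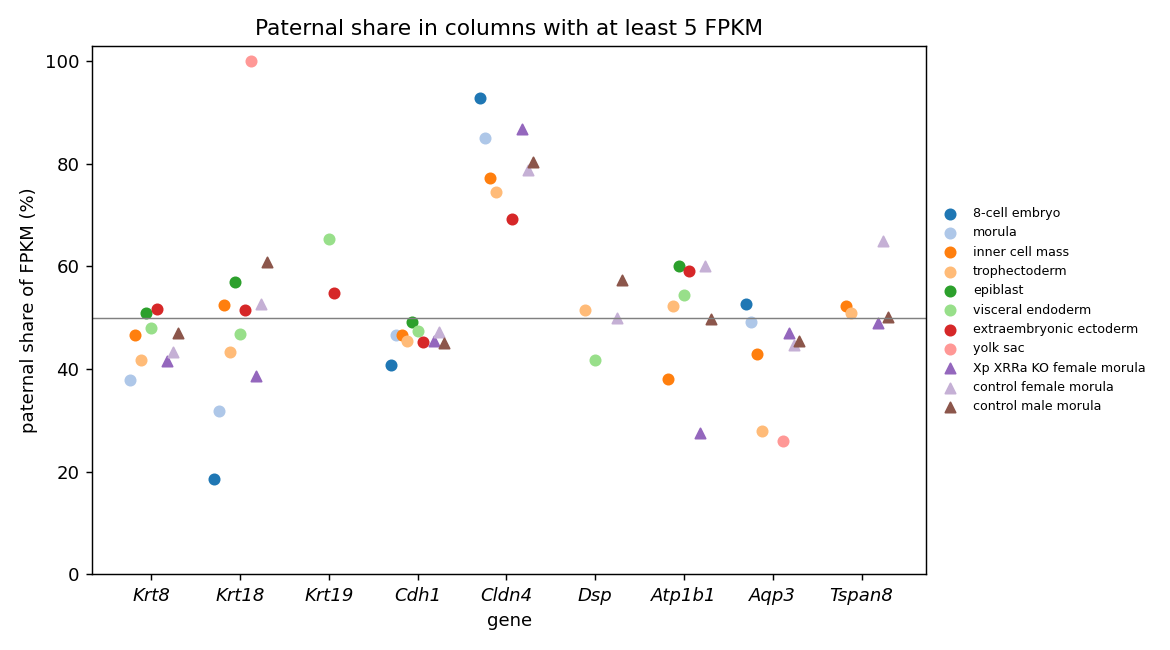
Points show the paternal share of FPKM in percent for each gene (horizontal axis) in the columns where it had at least 5 FPKM, circles for the stage table and triangles for the morula table. All 8 points of Cldn4 lie between 69.3% and 92.9%, while those of Cdh1 lie between 40.8% and 49.2%.

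Other genes of the same structures were taken from lists named by function. Of 16 other keratin genes, none could be compared in any of the 5 comparisons below, and the highest in the trophectoderm was Krt10, at 2.33 FPKM. Krt7, Krt80 and Krt86 were listed at 0 in every column of both tables, which may mean no reads that tell the alleles apart. Each list count is a description beside the share of all genes, and no list was tested. In morula over 8-cell embryo, where 31.3% of all genes were higher and 6.13% lower, all 5 comparable adherens junction genes were at least 2-fold higher, as Cdh1 was. They included Pvrl2, a nectin gene (34.2 against 5.54 FPKM, log2 ratio 2.43), Jup (2.14), Ctnnb1, which encodes beta-catenin (34.1 against 8.13 FPKM, 1.94), and Ctnnd1 (1.57). All 3 desmosome genes were higher (Jup, Perp at 1.78, Pkp2 at 1.63), 2 of 7 tight junction genes (Cldn7 at 176 against 25.7 FPKM, 2.73, and Pard6b at 1.47), a share near that of all genes, and 6 of 7 epithelial transcription factor genes, led by Cdx2 (2.88), Klf5 (2.25), Gata3 (1.92) and Tfap2c (1.65). Among pump and ion transport genes, 1 of 5 was higher (Slc12a4, 1.81) and 1 lower (Slc12a2, -1.25). Of the 2 aquaporin genes 1 was lower (Aqp11, -2.44), unlike Aqp3, and of 7 tetraspanin genes 3 were higher (Tspan3 at 3.02, Cd151 at 2.62, Tspan14 at 1.38). Snai1, the 1 comparable gene of the mesenchymal list, was higher as well (21.0 against 4.93 FPKM, 1.89).

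In trophectoderm over inner cell mass, 11.6% of all genes were higher and 12.6% lower. Of 13 tight junction genes 7 were at least 2-fold higher and none lower (list median 1.07), including Cldn3, the neighbour of Cldn4 (74.1 against 10.8 FPKM, 2.67), Cldn6 (249 against 47.7, 2.36), Tjp3 (27.2 against 6.08, 1.99) and Cgn, which encodes cingulin (1.48). Of 5 desmosome genes 3 were higher (median 1.57): Pkp2, a plakophilin gene (37.0 against 7.66 FPKM, 2.13), Dsc2 (1.75) and Perp (196 against 65.4, 1.57). None of 7 adherens junction genes passed 2-fold in either direction as deposited; they ranged from -0.63 (Pvrl2) to 0.92 (Ctnnd1), with a median of 0.81 that lay near that of the tight junction genes. Of 4 pump and ion transport genes 2 were higher, the pump modulator genes Fxyd6 (52.6 against 8.32 FPKM, 2.53) and Fxyd4 (1.59). Both comparable aquaporin genes were higher, Aqp7 (6.48 against 0.202 FPKM, 2.64), a neighbour of Aqp3, and Aqp9 (41.5 against 8.58, 2.15). Of 9 tetraspanin genes 4 were higher, led by Tspan1 (2.29), under the 3.88 of Tspan8, with Cd82 (1.99), Tspan9 (1.77) and Tspan15 (1.62). Of 9 epithelial transcription factor genes 5 were higher, led by Grhl1, a grainyhead-like factor gene (42.0 against 2.68 FPKM, 3.55), Tfap2a (2.30), Ovol1 (2.09) and Gata3 (2.01). Both comparable mesenchymal genes were lower, Fn1 (-3.60) and Snai1 (-2.79), and met the minimum only in the inner cell mass. Of the genes named as higher in this comparison, Dsc2, Aqp7, Cd82, Tspan9, Tspan15, Grhl1, Tfap2a and Ovol1 met the minimum only in the trophectoderm.

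**Figure D5:**
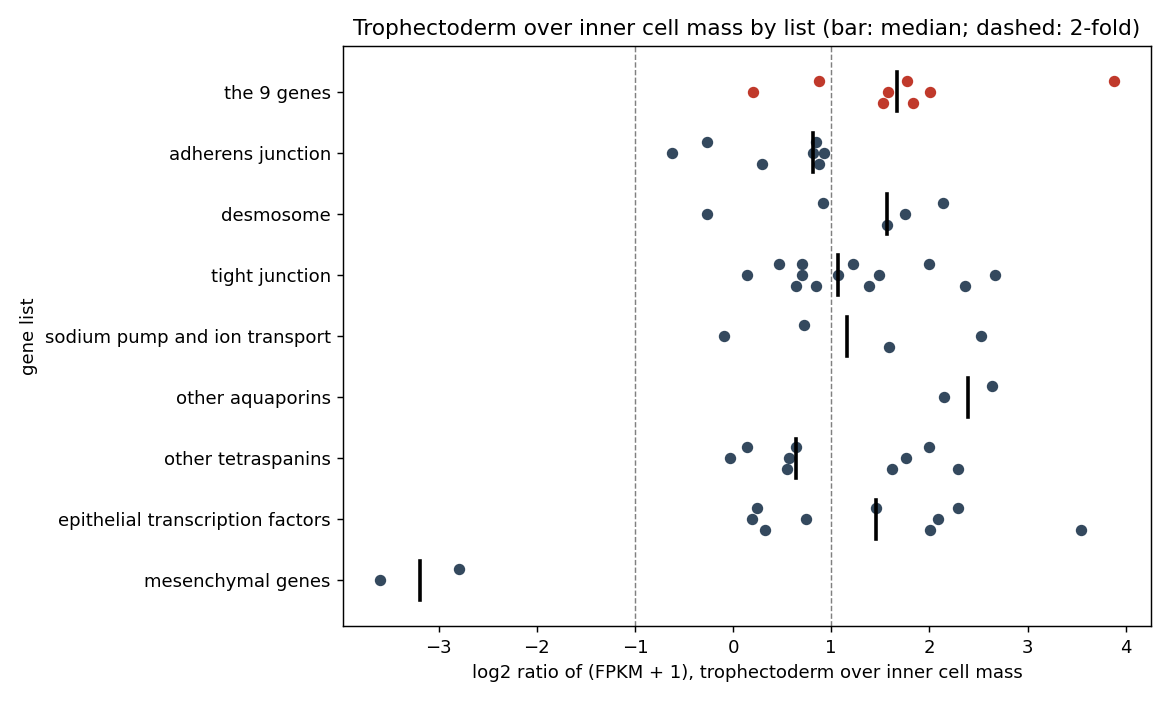
Each point is 1 gene of the list named on the vertical axis, placed by its log2 ratio of FPKM plus 1 in trophectoderm over inner cell mass, with a bar at the list median and dashed lines at 2-fold. Tight junction genes (7 of 13 past 2-fold) and desmosome genes (3 of 5) reach beyond the line on the higher side, while none of the 7 adherens junction genes does.

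In extraembryonic ectoderm over epiblast, where 16.2% of all genes were higher and 6.53% lower, 4 of 9 adherens junction genes were at least 2-fold higher (among them Cdh3, the neighbour of Cdh1, at 2.02, Jup at 1.98 and Ctnna1 at 1.31) and 1 was lower (Pvrl3, -2.26). Of 4 desmosome genes 3 were higher, with Perp at 105 against 1.16 FPKM (5.61) and Dsc2 at 2.36. Of 10 tight junction genes 2 were higher (Cldn3 at 76.5 against 2.12 FPKM, 4.63, and F11r at 1.57) and 1 lower (Crb3, -1.11). The pump modulator gene Fxyd6 was lower (-2.15). Of the tetraspanin genes 5 of 7 were higher, and of the epithelial transcription factor genes 3 of 4 (Klf5 at 4.32, Tead4 at 3.87, Grhl1 at 1.95). Snai1, again the 1 comparable mesenchymal gene, was higher (24.1 against 2.40 FPKM, 2.89).

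In visceral endoderm over extraembryonic ectoderm, where 10% of all genes were higher and 24.5% lower, Cldn3 was at -5.78 beside Cldn4 at -5.69. Of 13 tight junction genes, F11r (-1.09) was also at least 2-fold lower, and Crb3 (2.12) and Pard3 (1.01) were higher. Of 10 adherens junction genes 2 were higher (Cdh2 at 2.16, Pvrl3 at 1.30), in desmosomes Dsg2 was higher (1.30) and Perp lower (-1.80) of 5, and Aqp11 was higher (1.95). All 7 comparable epithelial transcription factor genes were lower, led by Tfap2c (-5.88). Among them, Cdx2, Gata3, Tead4 and Tfap2c also serve here as markers of trophectoderm or extraembryonic ectoderm, so their lower levels may reflect lineage, which was not tested. Of 3 mesenchymal genes Snai1 was lower (-2.48) and Cdh2 (2.16) and Fn1 (1.76) higher. Krt8, Krt18 and Krt19 were within 2-fold as deposited.

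In KO over control female morulae, where 4.04% of all genes were higher and 3.41% lower, the list genes past 2-fold were Ctnnd1 (21.2 against 10.04 FPKM, 1.01; 1 of 6 adherens junction genes), Cldn3 (1.97 against 5.01 FPKM, -1.02; 1 of 11 tight junction genes) and Slc12a2, a sodium-potassium-chloride cotransporter gene (22.0 against 9.35 FPKM, 1.15; 1 of 5 pump and ion transport genes). None of 3 desmosome genes (median -0.42), 7 tetraspanin genes or 6 epithelial transcription factor genes (median 0.30) did, and neither did the 1 comparable aquaporin gene.

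Genes with the most similar course over the 8 stage columns were found by Pearson correlation of log2 FPKM plus 1 among 7861 genes. The 8 points share a cross and differ in how many genes were above 0, most of all the yolk sac, so the values describe and are not tested. Nearest to Krt18 were Rai14 (0.993), Sh3bgrl2 (0.964) and Carkd (0.963), and nearest to Krt8 were Mtmr12 (0.983), Abhd12 (0.983) and Slc4a2 (0.981). Krt8 and Krt18 correlated with each other at 0.882, and at 0.986 without the yolk sac, where Krt8 was listed at 0. For Krt19 the nearest were Zfpm1 (0.990), Cyp26a1 (0.969) and Fgfbp1 (0.941).

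Nearest to Cdh1 were Aars (0.994), Dcp1a (0.993) and Chfr (0.993), and nearest to Cldn4 were Dusp14 (0.993), Slc46a1 (0.980) and Supt20 (0.977). For Dsp they were Slc35c1 (0.948), Ikbip (0.946) and the desmocollin gene Dsc2 (0.939), the 1 gene of the junction lists among them. Atp1b1 was nearest to Slc31a2 (0.995), Arfgef2 (0.970) and Mpp7 (0.970), and it correlated with Krt8 at 0.966. Aqp3 was nearest to Mfsd7c (0.987) and Nck2 (0.976), and its correlation with Krt19 was -0.520 (-0.470 without the yolk sac). Tspan8 was nearest to E330020D12Rik (0.994), the Wnt ligand gene Wnt3a (0.991) and BC053393 (0.990). Without the yolk sac, Rai14, Zfpm1, Dusp14, Slc31a2 and E330020D12Rik were still the nearest genes of Krt18, Krt19, Cldn4, Atp1b1 and Tspan8, whereas the gene named first moved to rank 10 for Krt8, 19 for Cdh1, 13 for Dsp and 3 for Aqp3.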

How the data were processed

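The authors deposited FPKM for each allele of each gene. Trim Galore 0.6.4, HISAT2 2.2.0, StringTie 2.1.1 and mm9 stand in the submitters' processing notes; allele assignment is not given in the sources used here. Per the file headers, each group had 1 merged column per allele, so no test was possible. Depth was unknown. Paternal over maternal FPKM was a ratio of whole numbers in 97.8% of 4926 low epiblast genes (whole numbers up to 60, relative tolerance 1e-05). This share was 100% in the yolk sac, also 1 sample, and 56.7% to 76.0% in the merged stage columns. In the columns of the morula table it was 3.93% to 5.58%. The value of a read could not be recovered. 5 summary lines were left out. A table of X-linked genes from EedmNull embryos holds none of the 9 genes and was not used.

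Totals (maternal plus paternal) were compared within a table by the size rule, with a pseudocount of 1 and a minimum of 5 FPKM. All 9 genes were named, with up to 4 genes per list past the rule and the 3 most correlated genes each, among genes at 5 FPKM in 1 column and above 0 in 5; some genes that this rule names are not reported here. Symbols matched RefSeq GRCm38.p6 for 22705 of 24083 genes; it gave names, neighbours and start-site windows. The members and lists were chosen with earlier results of these data known. Procedures were tested on simulated data. Alternatives were a pseudocount of 0.1, no minimum, centring on the median and each allele alone. Software was Python 3.11.15 with numpy 2.4.6 and pandas 2.3.3.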

Additional observations from a re-analysis of the deposited data

How the results depend on the processing

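Of 13 comparisons, each tried with 5 alternatives, the number of the 9 genes past 2-fold stayed within 1.5 times except in 3. In visceral endoderm over inner cell mass it was 6 as reported and 3 on the maternal allele alone. In visceral endoderm over epiblast it was 5, and 3 on the paternal allele alone. In Xp XRRa KO over control female morulae it was 1 (Krt18), and 2 with a pseudocount of 0.1, 2 on the maternal allele alone and 2 on the paternal allele alone, the added genes being Dsp (-1.13), Cldn4 (-1.25) and Atp1b1 (-1.43). No gene past 2-fold changed sign. Single genes crossed the 2-fold line in 9 of 95 ratios after centring, 6 of 82 on the maternal allele, 5 of 83 on the paternal allele, 2 of 95 with a pseudocount of 0.1 and 0 of 95 without a minimum level. The cause was not tested; for 1 allele alone, fewer genes reached the minimum. The likeness values without the yolk sac were added after seeing the data. No paired analysis was possible because the merged columns carry no replicate numbers, and no replicate could be left out for the same reason. Depth was unknown, so no limit for values near 0 could be given.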

Other observations

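Some members lie beside a close relative in the RefSeq gene order, Cldn4 beside Cldn3 and Aqp3 beside Aqp7. In visceral endoderm over extraembryonic ectoderm Cldn4 (-5.69) and Cldn3 (-5.78) had log2 ratios within 0.1 of each other, while in trophectoderm over inner cell mass Cldn4 (1.84) was under Cldn3 (2.67). Aqp3 (0.87) was likewise under Aqp7 (2.64) there.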
